A study of Mus musculus with 12 samples.

Results

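Drug and xenobiotic metabolism enzymes were examined in colonic epithelial cells as 158 protein-coding genes of 5 families, out of 46517 genes listed in the count data. Members were chosen by symbol: 78 cytochrome P450 genes of families 1 to 4 (Cyp), 19 UDP-glucuronosyltransferases of the Ugt1 and Ugt2 families (Ugt), 21 cytosolic sulfotransferases (Sult), 21 cytosolic glutathione S-transferases of the alpha, mu, pi, theta, omega and zeta classes (Gst) and 19 carboxylesterases (Ces). The cells came from the colons of C57BL/6 mice aged 7 to 9 weeks. There were 4 groups of 3 samples: untreated wild type (WT), WT given dextran sulfate sodium (DSS) for 48 h, untreated Nfkb2-/- mice (knockout, KO), and Nfkb2-/- mice given DSS for 48 h. DSS is a polysaccharide that injures the colonic epithelium, and Nfkb2 encodes p100, the precursor of the NF-kB subunit p52. The labels name no allele design for the knockout and do not say whether a sample pooled animals, and the untreated WT group is the control for both the treatment and the genotype. Epithelial cells were released from colon pieces with EDTA, with a purity of about 90% as CD45.2-negative, EpCAM-positive cells per the labels.

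Drug metabolism is usually described in steps. Cytochrome P450 enzymes of the endoplasmic reticulum oxidise lipophilic compounds with electrons passed on by the reductase Por, and carboxylesterases cleave esters and amides. Ugt enzymes then attach glucuronic acid, Sult enzymes attach sulfate and Gst enzymes attach glutathione, after which efflux pumps of the ABC class export the conjugates. Many P450 enzymes also act on the body's own molecules: Cyp2c enzymes make epoxides and hydroxylated products of arachidonic acid, and Cyp4f enzymes hydroxylate the ends of fatty acids and leukotrienes. In the gut these enzymes are found mainly in the absorptive epithelium, where they meet dietary, microbial and drug compounds first.

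Total counts per sample ranged from 5595909 to 8117740, and pairs of replicates differed by more than sampling noise in every group. Nfkb2 itself, the targeted gene, was 30.8 to 46.1 CPM (read counts scaled to the library total, adjusted by TMM factors) in the 6 WT samples and 11.7 to 19.6 CPM in the 6 KO samples, in the direction of the labels. Epithelial markers Epcam, Cdh1, Krt8, Krt18 and Vil1 summed to between 15095.0 and 21647.4 CPM in all libraries. The colonocyte list (10 genes, among them Car1, Slc26a3 and Krt20) summed to 18470.6 to 20695.1 CPM in untreated WT, 6899.3 to 7009.3 CPM in WT under DSS, 11739.5 to 12597.4 CPM in untreated KO and 6674.3 to 7328.5 CPM in KO under DSS. The 15 leukocyte markers summed to 15.6 to 25.1 CPM in untreated WT, 46.7 to 54.8 CPM in WT under DSS, 52.9 to 65.8 CPM in untreated KO and 83.6 to 125.3 CPM in KO under DSS, with no marker at 0 in every library. In bulk RNA such as this, fewer cells of a type and less RNA per cell cannot be told apart. Untreated WT replicate 3 stood apart in its effect on the calls. Without it 19 members passed for DSS in WT and 15 for DSS in KO, against 15 and 9 with all libraries. For KO against WT 16 passed untreated and 9 under DSS, against 8 and 9. Calls over all genes rose too, to 958, 710, 725 and 566 in the same order, from 789, 491, 436 and 390.

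The results turn first on the Cyp2c cluster of chromosome 19 and on Cyp4f14 of chromosome 17, the 3 members with the largest falls under DSS among those above 100 CPM in untreated WT, and on Gstm1 of chromosome 3, a glutathione S-transferase that was higher in KO both untreated and under DSS. Cyp2c69 is shown because it lies in the Cyp2c cluster and differed between genotypes in another way from its neighbours. The promoter windows below run from 250 bases before to 50 bases after the RefSeq start site that lies nearest the annotated gene start (RefSeq, GRCm38.p6), written 5′ to 3′ on the gene's strand. Capitals mark matches to 6 short motifs, searched on both strands.

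Cyp2c55, chr19:39006769-39007068, strand +: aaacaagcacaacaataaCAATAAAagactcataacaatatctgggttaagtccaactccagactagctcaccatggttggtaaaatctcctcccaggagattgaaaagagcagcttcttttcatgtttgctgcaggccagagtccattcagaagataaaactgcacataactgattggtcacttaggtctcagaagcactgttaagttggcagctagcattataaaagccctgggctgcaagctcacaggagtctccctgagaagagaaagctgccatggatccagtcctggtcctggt
Cyp2c65, chr19:39060756-39061055, strand +: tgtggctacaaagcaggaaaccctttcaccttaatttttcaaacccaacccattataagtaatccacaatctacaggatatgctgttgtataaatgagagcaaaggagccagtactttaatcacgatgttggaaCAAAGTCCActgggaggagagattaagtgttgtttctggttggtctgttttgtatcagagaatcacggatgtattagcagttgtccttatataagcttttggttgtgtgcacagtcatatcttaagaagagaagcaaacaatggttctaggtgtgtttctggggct
Cyp2c69, chr19:39886720-39887019, strand -: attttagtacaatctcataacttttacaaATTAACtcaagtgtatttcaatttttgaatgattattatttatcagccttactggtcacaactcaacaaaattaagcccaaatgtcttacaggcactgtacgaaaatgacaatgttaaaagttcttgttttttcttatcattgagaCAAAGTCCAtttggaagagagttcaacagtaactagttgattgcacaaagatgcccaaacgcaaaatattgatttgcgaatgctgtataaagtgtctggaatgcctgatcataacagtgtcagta
Cyp4f14, chr17:32917293-32917592, strand -: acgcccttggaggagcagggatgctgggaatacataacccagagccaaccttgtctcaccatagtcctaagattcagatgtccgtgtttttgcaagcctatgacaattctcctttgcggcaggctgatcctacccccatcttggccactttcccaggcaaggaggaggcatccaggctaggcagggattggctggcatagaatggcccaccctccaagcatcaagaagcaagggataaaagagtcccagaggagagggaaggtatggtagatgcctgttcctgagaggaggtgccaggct
Gstm1, chr3:108017924-108018223, strand -: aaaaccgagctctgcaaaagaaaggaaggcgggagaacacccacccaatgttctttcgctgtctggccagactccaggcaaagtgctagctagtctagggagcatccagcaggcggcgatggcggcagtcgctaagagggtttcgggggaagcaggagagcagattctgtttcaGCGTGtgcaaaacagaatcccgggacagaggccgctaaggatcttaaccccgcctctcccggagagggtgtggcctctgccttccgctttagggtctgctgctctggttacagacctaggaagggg

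The motifs were GTTAAT (a half-site of HNF1), TTTATNG (a core of CDX2), CAAAGTCCA (an HNF4 element), AGGTCA (the nuclear receptor half-site), GCGTG (the core bound by the aryl hydrocarbon receptor) and an NF-kB element, given by name alone. HNF1, HNF4 and CDX2 are transcription factors of the intestinal epithelium. The HNF4 element stood at positions -116 to -108 of Cyp2c65 and -75 to -67 of Cyp2c69, counted from the start site, and it is present in 0.475% of all 32851 windows of this length. It was in 2 of the 57 tested members that had a window, and these were the 2 named. The CDX2 core stood at -232 to -226 of Cyp2c55 on the reverse strand (10.9% of all windows), GCGTG at -76 to -72 of Gstm1 (32.4%) and the HNF1 half-site at -221 to -216 of Cyp2c69 on the reverse strand (7.10%). The window of Cyp4f14 held none of the 6 motifs as spelled here, and no window shown held AGGTCA (16.3%) or the NF-kB element (1.63%). Among the 57 tested members with a window, 7.02% held the CDX2 core, 12.3% AGGTCA and 19.3% GCGTG, all below the shares of all windows. The HNF1 half-site was in 14%, the HNF4 element in 3.51% and the NF-kB element in 1.75%, above those shares. A match is a description of the letters and not of a bound site.

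Most members were not expressed at a level that could be tested. Of the 158 members, 67 passed the filter on low counts, 57 had no count in any library and 34 had counts but did not pass. Untested members reached at most 19 counts in a library. The share tested differed by family: 18 of 21 Gst, 12 of 19 Ces, 25 of 78 Cyp, 7 of 19 Ugt and 5 of 21 Sult. Only 1 of 9 Cyp3a genes, Cyp3a13, was tested, and none of the Cyp4a genes (fatty acid omega-hydroxylases) or of the Cyp2a and Cyp2b genes was. A member tested because it was high in 1 group had to differ, so the counts below describe the 67 tested genes and not the families as a whole.

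In untreated WT each family was led by 1 or 2 genes when levels were divided by exon length. Cyp2c55 led all members with 1125.1 ± 204.8 CPM per kilobase (SD, n = 3), and its neighbour Cyp2c65 followed in the Cyp family with 161 ± 19.2 CPM per kilobase. The lowest Cyp2c55 sample, 941.9 CPM per kilobase, lay above every Cyp2c65 sample. Sult1a1, which sulfates small phenols, had 359 ± 60.3 CPM per kilobase, above all samples of Sult1d1 at 170 ± 45.6 CPM per kilobase, while Sult1d1 and Sult1b1 (148 ± 50.1) overlapped. Among Ugt genes Ugt2b34 had 268 ± 38.8 and Ugt1a7c 69.3 ± 8.51 CPM per kilobase. Among Gst genes Gsto1, the omega class enzyme, had 235 ± 39.1 and Gstm1 129 ± 10.7 CPM per kilobase, with no overlap. Ces2e (153 ± 35.1 CPM per kilobase) and Ces2c (94.9 ± 9.75 CPM per kilobase), intestinal carboxylesterases, led the Ces family, also with no overlap. The Ugt1a genes share their last exons, so that 54.6% of the exon bases of Ugt1a7c and 82.7% of those of Ugt1a1 lie in exons of other genes, and their level per length depends on how shared reads were counted, which is not stated.

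The summed level of the 158 members was lower under DSS in both genotypes. It was 8230.8 to 10845.0 CPM in untreated WT and 5431.8 to 5818.9 CPM in WT under DSS, with no overlap. It was 7047.3 to 7688.0 CPM in untreated KO and 5903.5 to 6259.9 CPM in KO under DSS, again with no overlap. The Cyp sum was 3523.5 to 4629.9 CPM in untreated WT, 1532.4 to 1593.1 CPM in WT under DSS, 2030.4 to 2242.9 CPM in untreated KO and 1498.0 to 1693.1 CPM in KO under DSS. The mean of all members went from 9421.0 to 5656.4 CPM in WT and from 7309.3 to 6065.4 CPM in KO, beside Cyp means of 4065.8 and 1570.0 CPM in WT and 2165.6 and 1626.9 CPM in KO. Cyp2c55 alone made up 2244.5 CPM of the mean Cyp sum of 4065.8 CPM in untreated WT, and 347.6 of 1626.9 CPM in KO under DSS. The Gst sum did not follow this order, with group means from 1261.1 CPM in WT under DSS to 1500.4 CPM in untreated KO and overlapping samples.

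**Figure D1:**
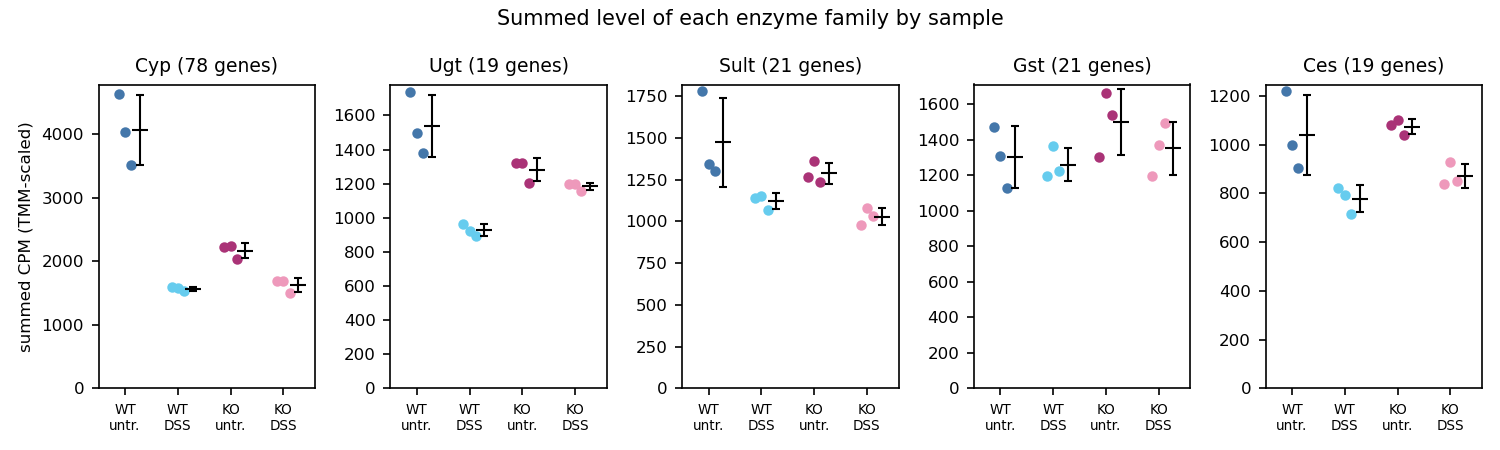
Summed TMM-scaled CPM of the genes of each family (y axis, from 0) in the 3 samples of each group, with the mean and SD beside the points. The Cyp sum was 3523.5 to 4629.9 CPM in untreated WT and at most 2242.9 CPM in every other sample, while the Gst samples of the 4 groups overlapped.

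The first comparison asked how the enzymes differed after 48 h of DSS in WT. Of the 67 tested members, 14 fell and 1 rose by edgeR's quasi-likelihood test at an adjusted p under 0.05. Adjusted p-values are from that test throughout, with Benjamini-Hochberg adjustment over all genes tested. The falls were 20.9% of the members against 3.50% of all genes tested, and the rise 1.49% against 2.80%, where 6.30% of all genes passed in either direction. The median log2 fold change of the tested members was -0.18, beside 0.01 for all genes. Of the Cyp genes 7 of 25 fell, of the Ugt genes 3 of 7, of the Sult genes 2 of 5, and of the Ces genes 2 of 12 fell and 1 rose. No Gst gene of 18 passed in either direction in edgeR, where 2 were higher and 0 lower at an unadjusted p under 0.05, and DESeq2 called 1 higher, Gsta3.

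The largest fall was in Cyp2c55, an arachidonic acid hydroxylase of the colon. It had 2685.7, 2168.6 and 1879.1 CPM in untreated WT and 328.2, 371.9 and 287.3 CPM in WT under DSS. The groups were far apart, with a log2 fold change of -2.77 (SE 0.15, adjusted p 2.30e-08). Cyp2c65, its relative just downstream on chromosome 19, had 319.6, 268.9 and 341.0 CPM untreated and 65.3, 63.3 and 65.1 CPM under DSS (log2 fold change -2.26, SE 0.15, adjusted p 3.22e-07). Of the 50-base words in Cyp2c65 exons 20.6% also occur in other genes, mainly Cyp2c66, which was counted at most 23 times in a library.

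Cyp4f14, which hydroxylates leukotriene B4 and other fatty acids, had 229.8, 191.1 and 161.6 CPM untreated and 56.3, 60.3 and 53.3 CPM under DSS (log2 fold change -1.78, SE 0.13, adjusted p 6.78e-07). Cyp4f40, of the same cluster on chromosome 17, had 110.9 ± 7.18 CPM (SD, n = 3) untreated and 119.9 ± 9.65 CPM under DSS and did not pass (adjusted p 0.724). Cyp3a13, the only Cyp3a enzyme tested, had 280.1, 239.7 and 214.5 CPM untreated and 120.1, 122.8 and 141.9 CPM under DSS (log2 fold change -0.93, SE 0.13, adjusted p 0.000263). Smaller falls were those of Cyp2s1 (-0.48, adjusted p 0.0270) and Cyp2j6, an arachidonic acid epoxygenase (-0.50, adjusted p 0.0209). Cyp2c69 had few counts, 23, 27 and 9 untreated and 2, 6 and 1 under DSS, and passed with a log2 fold change of -2.75 (SE 0.63, adjusted p 0.0156). Of its 50-base words 54.3% recur elsewhere, mainly in Cyp2c40, so that its counts are uncertain.

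Among the conjugating enzymes Sult2b1, a sulfotransferase of cholesterol and other sterols, had 78.9, 75.1 and 42.5 CPM untreated and 17.9, 23.3 and 18.6 CPM under DSS (log2 fold change -1.71, SE 0.23, adjusted p 0.000252). Ugt2b5 had 54.5, 44.0 and 75.9 CPM untreated and 23.7, 18.4 and 19.7 CPM under DSS (log2 fold change -1.50, SE 0.21, adjusted p 0.000451), and it shares 41.7% of its 50-base words, mainly with Ugt2b38. The 2 abundant Ugt genes changed less: Ugt2b34 went from 1153.8 ± 167.2 to 708.8 ± 21.9 CPM (SD, n = 3; log2 fold change -0.70, adjusted p 0.000412). Ugt1a7c went from 292.4 ± 35.9 to 177.8 ± 14.7 CPM (log2 fold change -0.72, adjusted p 0.000992). None of the 7 tested Ugt genes had a positive value, where 6146 of all 12522 genes tested had negative ones. The 3 Ugt1a genes among the 7 share their last exons, so their values are not separate observations. Sult1d1 fell (-0.56, adjusted p 0.0378), whereas Sult1a1, the most abundant sulfotransferase per length, did not pass (541.3 ± 90.9 and 466.8 ± 24.3 CPM, adjusted p 0.358).

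The carboxylesterases were split. Ces1f had 118.6, 93.7 and 109.7 CPM untreated and 54.2, 50.8 and 38.8 CPM under DSS (log2 fold change -1.16, SE 0.15, adjusted p 0.000188). Ces2c had 244.0, 206.5 and 204.0 CPM untreated and 119.8, 117.3 and 112.5 CPM under DSS (log2 fold change -0.90, SE 0.10, adjusted p 6.01e-05), with 36.1% of its 50-base words shared, mainly with the pseudogene Ces2d-ps. Ces2e, the most abundant, did not pass (412.4 ± 94.6 and 345.0 ± 20.3 CPM, adjusted p 0.362). Ces2f was the 1 member that rose, on 1, 2 and 9 counts untreated and 27, 57 and 19 counts under DSS (log2 fold change 2.96, SE 0.83, adjusted p 0.0485).

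Of the 15 calls in WT, 10 were kept in every one of 18 alternative fits. The call was lost in at least 1 of them for Ces2f, Cyp2c69, Cyp2j6, Cyp2s1 and Sult1d1, and that of Ces2f was lost in 11 of the 18, with an adjusted p of 0.195 without WT replicate 2 under DSS. The colonocyte list moved with these falls: 9 of its 10 genes were lower under DSS in WT, with a median log2 fold change of -2.22, and the part of this in the falls of the enzymes was not tested.

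The second comparison made the same contrast in KO. Of the 67 tested members 9 fell, 13.4% against 2.04% of all genes tested, and none rose, against 1.88%. Of all genes tested 3.92% passed in either direction. For the direction with no call, 3 members were higher at an unadjusted p under 0.05 in edgeR and DESeq2 called 1. The falls were in 4 Cyp, 3 Ces, 1 Ugt and 1 Sult genes. The tested members had a median of -0.12, beside 0.02 for all genes. Of the calls 8 were also called in WT, which is 53.3% of the WT calls and 88.9% of the KO calls: Cyp2c55, Cyp2c65, Cyp4f14, Cyp3a13, Ces1f, Ces2c, Sult2b1 and Ugt2b5. The same overlap over all genes tested was not counted, so these shares describe the members alone. The contrasts in WT and KO share no sample, but they come from the same fit over all 12 samples.

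**Figure D2:**
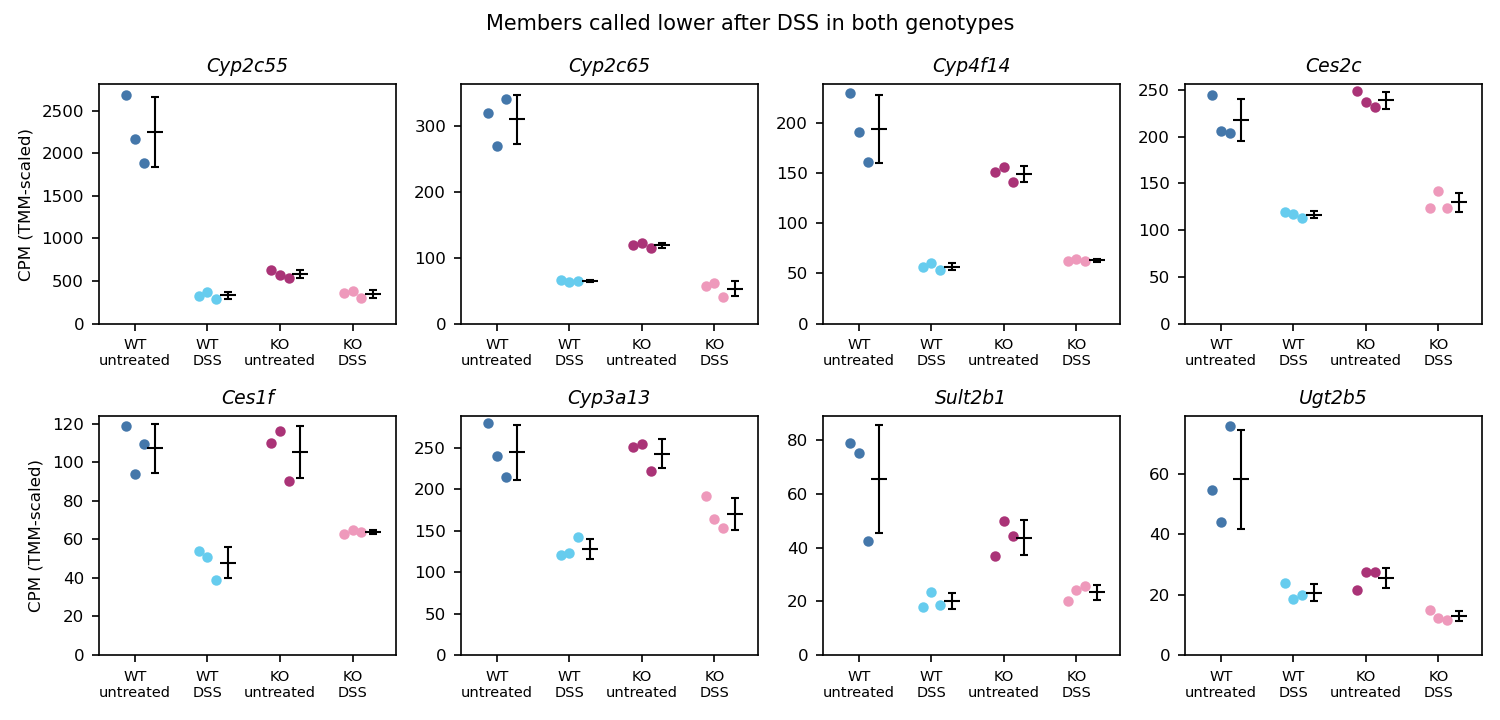
TMM-scaled CPM of the 8 members called lower under DSS in both genotypes (y axis from 0, 1 panel per gene), with 1 point per sample and the mean and SD beside the points. In Cyp2c55 the untreated KO samples (539.3 to 630.9 CPM) lie between the untreated WT samples (1879.1 CPM and above) and the DSS samples (380.2 CPM and below).

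Cyp4f14 fell in KO from 150.8, 156.6 and 140.9 CPM to 62.2, 64.8 and 62.8 CPM (log2 fold change -1.24, SE 0.13, adjusted p 6.99e-05). Cyp2c65 fell from 118.9, 121.3 and 114.7 CPM to 57.3, 62.0 and 39.8 CPM (log2 fold change -1.16, SE 0.15, adjusted p 0.000371). Ces2c went from 248.9, 236.7 and 231.2 CPM to 124.1, 141.6 and 123.3 CPM (log2 fold change -0.88, SE 0.10, adjusted p 0.000234). Its interaction, 0.02, did not pass (adjusted p 0.987). Cyp2c55 fell by less than in WT, from 630.9, 570.5 and 539.3 CPM to 362.9, 380.2 and 299.6 CPM (log2 fold change -0.74, SE 0.14, adjusted p 0.00703). Ces1g fell from 23.7, 22.2 and 20.2 CPM to 8.84, 8.30 and 4.71 CPM, with a log2 fold change of -1.60 (SE 0.33, adjusted p 0.0136). It did not pass in WT (-0.88, adjusted p 0.158), and its interaction did not pass either (adjusted p 0.674). Ugt2b5 (-0.99, adjusted p 0.0202), Sult2b1 (-0.90, adjusted p 0.0374), Ces1f (-0.72, adjusted p 0.0130) and Cyp3a13 (-0.52, adjusted p 0.0317) completed the list. With the replicate number as a block, Sult2b1 had an adjusted p of 0.0505 and no longer passed. The block gave same-numbered samples of every group a common effect, so it did not pair the KO samples on their own. The call of Sult2b1 was also lost in 8 fits that left out 1 library.

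The calls of Ces2c, Cyp2c55, Cyp2c65 and Cyp4f14 were kept in every alternative. The count of 9 was 15 without untreated WT replicate 3, 5 without untreated KO replicate 1 or 2, and 4 without KO replicate 3 under DSS. Calls over all genes were 710, 262, 235 and 283 in these fits, against 491 with all libraries. Of the colonocyte list 9 of 10 genes were lower in KO under DSS too, with a median log2 fold change of -1.28, and their part in the falls was not tested.

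**Figure D3:**
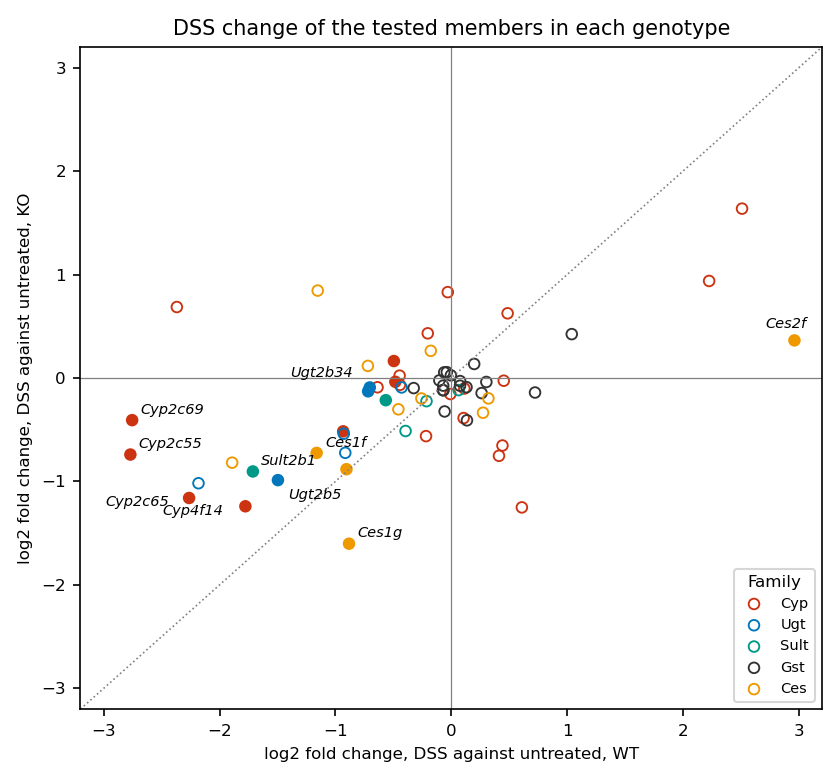
Log2 fold change under DSS in WT (x axis) against that in KO (y axis) for 66 of the 67 tested members, coloured by family, with filled points for members past the threshold in at least 1 genotype and a dotted line of equal change. Cyp2c55 lies at -2.77 in WT and -0.74 in KO, Cyp4f14 at -1.78 and -1.24, and no Gst gene is filled. Cyp4b1, with 0 counts in all 3 samples of KO under DSS, is left out of the plot.

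The third comparison set untreated KO against untreated WT, and shares its untreated WT samples with the first. Of the tested members 4 were higher and 4 lower in KO, 5.97% in each direction. Of all genes tested 1.72% were higher and 1.76% lower, 3.48% in all. The lower genes were the 2 Cyp2c genes, Ugt2b5 and Cyp2s1, and the higher genes were Gstm1, Gsta3, Cyp2d12 and Ces2g. Cyp2c55 was 1879.1 to 2685.7 CPM in untreated WT and 539.3 to 630.9 CPM in untreated KO (log2 fold change -1.95, SE 0.14, adjusted p 2.66e-06). Cyp2c65 was 268.9 to 341.0 CPM against 114.7 to 121.3 CPM (-1.39, SE 0.14, adjusted p 4.95e-05). Ugt2b5 was 44.0 to 75.9 CPM against 21.7 to 27.6 CPM (-1.18, SE 0.21, adjusted p 0.00543). Cyp2s1 differed less (-0.52, SE 0.12, adjusted p 0.0287). Other genes that fell under DSS did not pass here. Among them Cyp4f14 (-0.38, adjusted p 0.126), Cyp2j6 (-0.38, adjusted p 0.0993) and Sult1d1 (-0.48, adjusted p 0.103) were lower in every untreated KO sample than in every untreated WT sample, and DESeq2 called Cyp2j6 and Sult1d1 (adjusted p 0.0432 and 0.0450). Samples of the genotypes overlapped for Ugt1a7c (-0.33, adjusted p 0.135) and Sult2b1 (-0.59, adjusted p 0.187). These 5 genes passed without untreated WT replicate 3. The values lay closer for 2 others, with Ces2c at 218.2 ± 22.4 and 238.9 ± 9.07 CPM and Cyp3a13 at 244.8 ± 33.1 and 242.7 ± 17.6 CPM (SD, n = 3; adjusted p 0.629 and 0.981).

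Gstm1, a mu class glutathione S-transferase, was the member with the smallest adjusted p among those higher in untreated KO. It had 208.1, 178.2 and 185.1 CPM in untreated WT and 385.3, 463.6 and 431.9 CPM in untreated KO. Every KO sample was well above every WT sample (log2 fold change 1.16, SE 0.11, adjusted p 3.09e-05). Under DSS, in other samples, it had 195.6, 230.4 and 201.7 CPM in WT and 288.5, 317.5 and 358.6 CPM in KO (log2 fold change 0.62, SE 0.11, adjusted p 0.00743). Gstm1 shares 18.9% of its 50-base words, mainly with the pseudogene Gstm2-ps1.

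Gstm1 lies in a cluster of 7 Gstm genes on chromosome 3, between 107895821 (Gstm5) and 108044894 (Gstm4) of GRCm38, all of which were tested. In untreated cells all 7 had positive log2 values for KO against WT with a median of 0.41, and 1 passed, where 6238 of all 12522 genes tested were positive and 1.72% passed as higher. Under DSS all 7 were again positive with a median of 0.44, and 2 passed, Gstm1 and Gstm3, where 6314 of the 12522 were positive and 1.77% passed as higher. Gstm3 had 58.3, 67.1 and 68.7 CPM in WT under DSS and 81.3, 126.8 and 93.4 CPM in KO under DSS (log2 fold change 0.64, SE 0.16, adjusted p 0.0485), a call lost in 13 of 18 alternatives, the most of any member's call. Of the other cluster genes, chosen after their values were seen, Gstm4 had 21.9 ± 1.80 CPM in untreated WT and 29.1 ± 4.05 CPM in untreated KO (SD, n = 3) and did not pass (adjusted p 0.310). Gstm7 had 13.2 ± 1.36 and 22.6 ± 1.69 CPM and did not pass either (adjusted p 0.0994). Of all 18 tested Gst genes, with the 7 among them, 16 were positive untreated and 14 under DSS. The 6 tested Cyp2d genes were all positive untreated (median 0.47), and 4 were under DSS. The Gstm genes are neighbours, and their values are given as a description.

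The remaining higher genes were less abundant. Gsta3, an alpha class enzyme, had 13.4, 11.3 and 15.3 CPM in untreated WT and 22.4, 32.0 and 25.8 CPM in untreated KO (log2 fold change 1.00, SE 0.21, adjusted p 0.0164). Ces2g had 34.3, 38.4 and 34.6 CPM against 55.9, 64.5 and 60.8 CPM (0.76, SE 0.14, adjusted p 0.00751). Cyp2d12 had 20.7, 18.9 and 9.27 CPM against 40.9, 44.2 and 33.0 CPM (1.27, SE 0.26, adjusted p 0.0151). Gsto1, the most abundant Gst gene per length, stood the other way without passing in edgeR (adjusted p 0.0631). It had 475.7 ± 79.2 CPM in untreated WT and 323.4 ± 53.4 CPM in untreated KO, with no overlap. DESeq2 called it lower in KO (DESeq2 adjusted p 0.0182). Without untreated WT replicate 3 the 8 calls of this contrast became 16, and the 436 over all genes became 725. Cyp2d12, Cyp2s1 and Gsta3 were the calls lost in at least 1 alternative. The libraries of WT carry lower serial numbers than all those of KO, so that order in the series and genotype cannot be told apart. In untreated KO 2 genes of the colonocyte list were higher and 3 lower, 3 of the 8 goblet and deep crypt secretory markers were lower (summed means of 26218.5 CPM in WT and 14857.3 CPM in KO), and 3 of the 10 tested leukocyte markers were higher. The part of these markers in the differences was not tested.

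**Figure D4:**
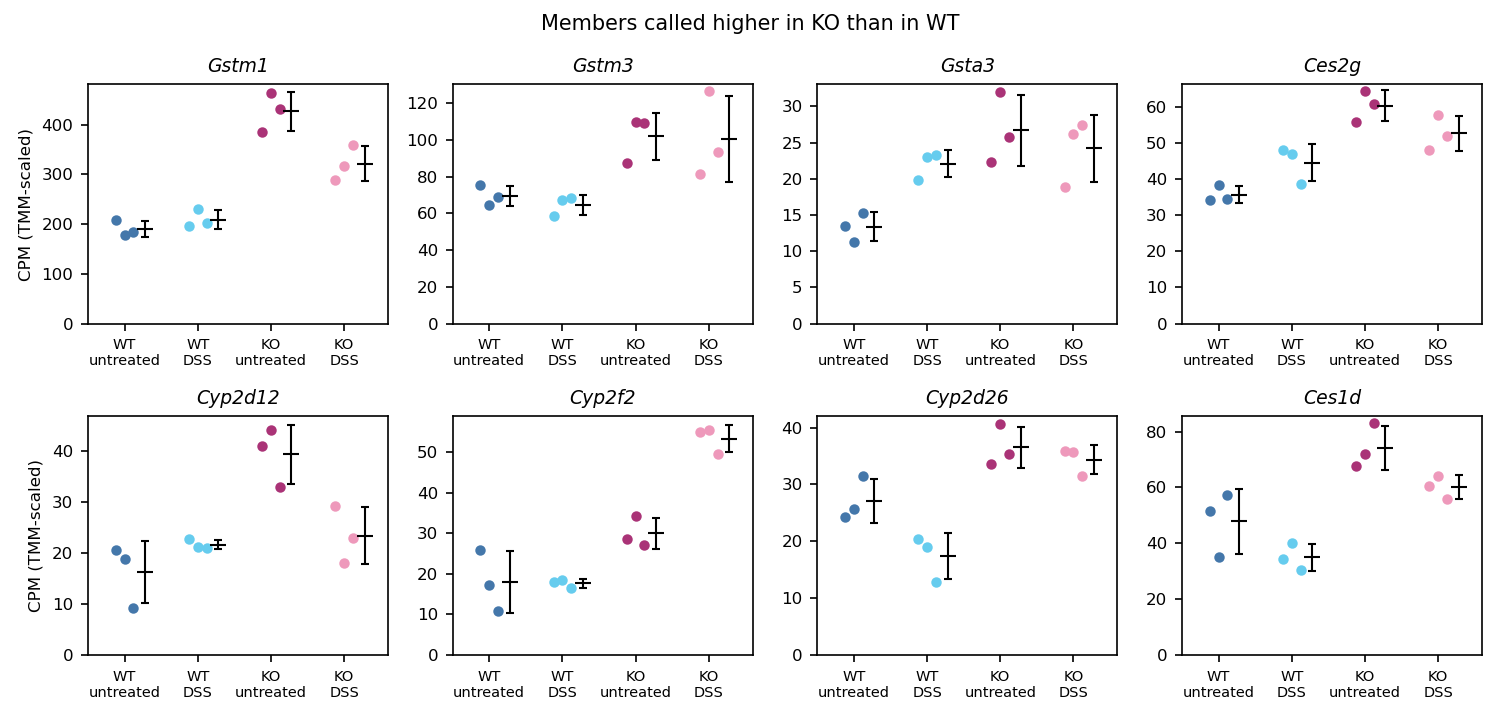
TMM-scaled CPM (y axis from 0) of 8 members called higher in KO than in WT, untreated or under DSS, with 1 point per sample and the mean and SD beside the points. Gstm1 was 178.2 to 230.4 CPM in the 6 WT samples and 288.5 to 463.6 CPM in the 6 KO samples.

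The fourth comparison set KO against WT under DSS. Of the tested members 8 were higher, 11.9% against 1.77% of all genes tested, and 1 was lower, 1.49% against 1.34%. Of all genes tested 3.11% passed in either direction. None of the 8 members that fell under DSS in both genotypes passed here, though the samples of some did not overlap. How often samples did not overlap over all genes tested was not counted, here or in the untreated comparison. Cyp3a13 (0.40, adjusted p 0.109), Ces1f (0.41, adjusted p 0.191), Cyp4f14 (0.16, adjusted p 0.644) and Ces2c (0.15, adjusted p 0.561) were higher in every KO sample. Cyp2c65 was lower in every KO sample (-0.29, adjusted p 0.407). Cyp2c55 was 287.3 to 371.9 CPM in WT and 299.6 to 380.2 CPM in KO, overlapping (log2 fold change 0.08, SE 0.14, adjusted p 0.860). Cyp2f2, a P450 best known from the airway, had 17.9, 18.5 and 16.5 CPM in WT and 55.0, 55.3 and 49.5 CPM in KO (log2 fold change 1.59, SE 0.24, adjusted p 0.00230). Of its exon bases 13.5% lie in exons of Gm15883, and without strand information reads there could belong to either gene. Cyp4f40 was the 1 lower member, with 125.1, 108.8 and 125.9 CPM in WT and 84.0, 78.0 and 67.9 CPM in KO (-0.65, SE 0.12, adjusted p 0.00666).

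Cyp2c69 stood at 2, 6 and 1 counts in WT under DSS and 16, 26 and 40 counts in KO under DSS (log2 fold change 3.18, SE 0.62, adjusted p 0.0114). Cyp2d26 had 20.4, 19.1 and 12.9 CPM in WT and 35.9, 35.7 and 31.5 CPM in KO (0.98, SE 0.20, adjusted p 0.0133). Ces1e (1.21, adjusted p 0.0174) and Ces1d (0.78, adjusted p 0.0308), carboxylesterases of the Ces1 cluster on chromosome 8, were higher too. Ces1d had 34.3, 40.1 and 30.3 CPM in WT and 60.6, 64.1 and 55.7 CPM in KO. Ugt2b34 had 733.5, 701.0 and 691.9 CPM in WT and 955.9, 949.9 and 921.2 CPM in KO, with no overlap (0.41, SE 0.10, adjusted p 0.0388). Cyp2f2 and Cyp4f40 were the 2 of 9 calls kept in every alternative. The count of 9 fell to 4 without WT replicate 1, KO replicate 2 or KO replicate 3 under DSS, and to 3 without WT replicate 3 under DSS. Calls over all genes were 160, 189, 212 and 195 in these fits, against 390 with all libraries. Of the colonocyte list 5 of 10 genes, of the 8 goblet and deep crypt secretory markers 4, and of the 10 tested leukocyte markers 2 were higher in KO under DSS and none lower, and their part in these differences was not tested.

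**Figure D5:**
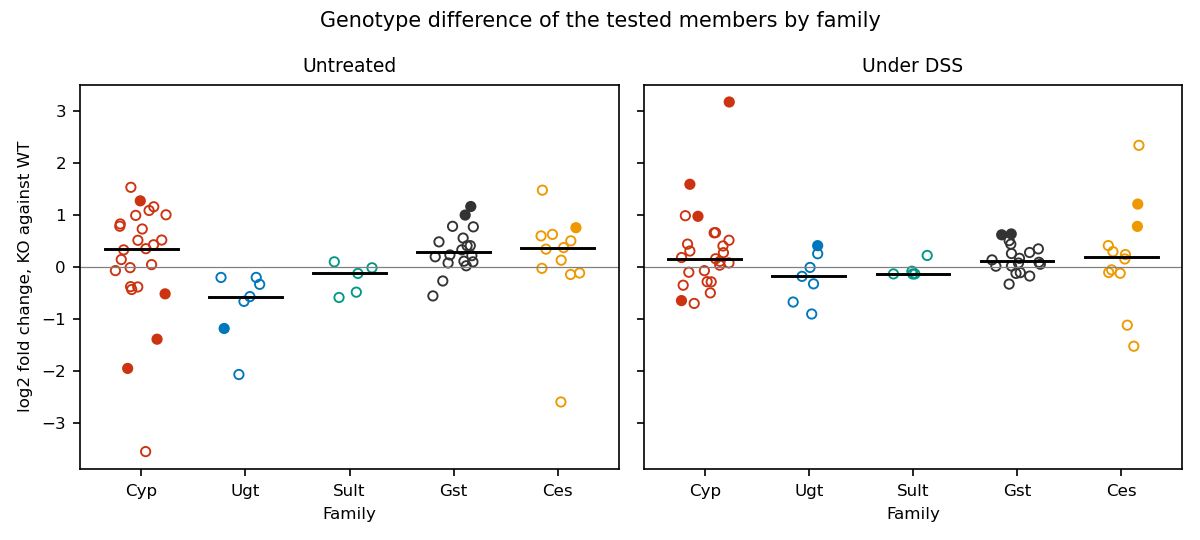
Log2 fold change of KO against WT (y axis) for the tested members of each family, untreated on the left and under DSS on the right, with filled points for members past the threshold and a bar at the family median. The Gst median was 0.28 untreated and 0.11 under DSS, and the Ugt median was -0.57 and -0.18. Cyp4b1, with 0 counts in KO under DSS, is left out of the points on the right but counts in the median.

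The interaction asked whether the DSS change itself differed between genotypes. It passed for 3 of the 67 members, all with a more positive change in KO (4.48% against 1.17% of all genes tested), and for none with a more negative one (0.527%). Of all genes tested 1.70% passed in either direction. For the direction with no call, 8 members had an unadjusted p under 0.05 in edgeR and DESeq2 called 0. The DSS change of Cyp2c55 was 2.03 higher in KO on the log2 scale (SE 0.19, adjusted p 5.67e-05) and that of Cyp2c65 was 1.10 higher (SE 0.20, adjusted p 0.0100). In both genes the groups under DSS lay close together and the untreated groups far apart. Ugt2b34 had an interaction of 0.61 (SE 0.14, adjusted p 0.0401): untreated samples overlapped between genotypes, and under DSS the WT samples were lower. Both Cyp2c calls were kept in every one of 17 alternatives, while that of Ugt2b34 was lost in 10 fits that left out 1 library. Without untreated WT replicate 3 the interaction passed for 8 members, and for 350 of all genes against 213. With all libraries the interaction also passed, as more positive in KO, for 4 of the 10 colonocyte markers (median 0.67). The same held for 3 of the 8 goblet and deep crypt secretory markers (median 0.49), and the part of these markers in the result was not tested.

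The partners of these enzymes were examined from lists of other pathway genes. Of 31 tested electron donors and other phase I enzymes, 7 fell and 2 rose under DSS in WT, and 5 fell and 1 rose in KO, beside the 3.50% lower and 2.80% higher of all genes in WT and the 2.04% and 1.88% in KO. Por, which passes electrons to every microsomal P450, fell in WT (148.0 ± 17.7 to 89.2 ± 5.62 CPM, SD, n = 3; log2 fold change -0.73, adjusted p 0.000870). It was lower in untreated KO than in untreated WT as well (108.8 ± 4.68 CPM; -0.44, adjusted p 0.0429). Aldh1a1, a retinaldehyde dehydrogenase, fell in WT (-1.64, adjusted p 0.000178) and in KO (-0.92, adjusted p 0.0232). Aldh1a7, Akr1c19, Aadac and Maoa fell in WT with log2 fold changes of -1.41, -0.90, -0.81 and -0.78, and in KO Akr1c19 (-0.62), Aadac (-0.70), Maoa (-0.45) and Akr1c13 (-0.51) fell while Xdh rose (0.64).

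Adh1, an alcohol and retinol dehydrogenase, moved the other way. It was 741.4 to 955.2 CPM in untreated WT, 1579.8 to 1819.9 CPM in WT under DSS, 2073.4 to 2253.0 CPM in untreated KO and 2437.6 to 2740.4 CPM in KO under DSS, with no overlap between any of the groups. It passed under DSS in WT (1.03, adjusted p 1.23e-05), in untreated KO against WT (1.37, adjusted p 2.66e-06) and in the interaction (-0.79, adjusted p 0.00716). Aadac, an arylacetamide deacetylase that acts beside the carboxylesterases, was higher in KO both untreated (0.94, adjusted p 0.00915) and under DSS (1.05, adjusted p 0.00578), as was Maob, a monoamine oxidase (0.77 and 0.75, adjusted p 0.0363 and 0.0466). Aldh3a2 was higher in KO under DSS (0.46, adjusted p 0.0239).

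Of 19 tested genes for cofactor synthesis and other conjugation, 5 fell under DSS in WT and 1 in KO (3.50% and 2.04% of all genes), and none rose in edgeR (3 in WT and 1 in KO higher at an unadjusted p under 0.05, and 1 and 0 in DESeq2). They included the enzymes that make the donors for glucuronidation and sulfation. Ugdh, which makes UDP-glucuronic acid, was 595.2 to 802.4 CPM in untreated WT and 405.8 to 453.7 CPM under DSS (-0.70, adjusted p 0.00192). Papss2, which makes the sulfate donor PAPS, fell in WT (-0.77, adjusted p 0.000126) and in KO (-0.38, adjusted p 0.0379), and was lower in untreated KO than in untreated WT (-0.48, adjusted p 0.0110). Ethe1 (-0.99), Nat2, an arylamine acetyltransferase (-1.17), and Ugp2 (-0.42) also fell in WT.

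Of 13 tested drug transporters 6 fell in WT under DSS and 1 in KO, against 3.50% and 2.04% of all genes tested. Under DSS 3 of the 13 were higher in KO than in WT, Abcb1a (0.91), Abcc5 (4.32) and Slc15a1 (1.16), against 1.77% of all genes. Abcg2, an efflux pump for sulfate and other conjugates, fell in both, from 146.6 ± 32.1 to 54.7 ± 6.64 CPM in WT and from 128.2 ± 21.3 to 54.9 ± 4.10 CPM in KO (SD, n = 3; log2 fold change -1.42 and -1.22, adjusted p 0.000101 and 0.000895). Abcb1a, which encodes a P-glycoprotein, fell in WT from 464.3 to 498.5 CPM down to 218.2 to 286.1 CPM, and was 357.7 to 428.0 CPM in untreated KO and 407.7 to 512.6 CPM in KO under DSS. Its interaction passed (1.25, SE 0.17, adjusted p 0.000940), as did that of Abcc5 (4.77, SE 1.09, adjusted p 0.0401). Abcc5 had 0.133 to 0.489 CPM in WT under DSS, at most 3 counts in a library, and 4.60 to 5.82 CPM in KO under DSS. The largest DSS change in KO among the 13 was 0.81 on the log2 scale, so most of the Abcc5 interaction was a fall in WT. Slc15a1, a peptide transporter, Slc22a18 and Abcc3 also fell in WT (-1.87, -0.60 and -0.43). The falls given here are not all 6, and the lowest log2 fold change in WT among the 13 was -4.49. Abcc4 was higher in untreated KO than in untreated WT (1.74, adjusted p 0.0266).

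Of 24 tested receptors and regulators 3 fell under DSS in WT and 2 in KO (3.50% and 2.04% of all genes), and none rose in edgeR or DESeq2 (0 higher at an unadjusted p under 0.05 in both). Cdx2, a transcription factor of intestinal identity, fell in WT (251.4 ± 51.7 to 87.8 ± 2.61 CPM, SD, n = 3; -1.52, adjusted p 9.21e-06) and in KO (-0.76, adjusted p 0.00727). Pparg fell in both as well (-1.09 and -0.60, adjusted p 0.000120 and 0.0202). In untreated KO 2 of the 24 were lower than in untreated WT, against 1.76% of all genes tested, and none was called higher in edgeR. For the direction with no call, 3 were higher at an unadjusted p under 0.05 in edgeR and DESeq2 called 1. Nfe2l2, the regulator of antioxidant and Gst genes, was 1 of the 2 lower genes (-0.48, adjusted p 0.00850). It also fell under DSS in WT (-0.57, adjusted p 0.00124) and passed in the interaction (0.55, adjusted p 0.0490). Hnf4a and Nr1i2, the receptor that senses many drugs, were measured well and did not pass in any contrast. Hnf4a, named after its values were seen, was 554.8 ± 6.94 CPM in untreated WT and 532.9 ± 45.1 CPM under DSS (adjusted p 0.822), and Nr1i2 was 98.7 ± 11.2 and 91.2 ± 12.01 CPM (adjusted p 0.790).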

How the data were processed

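RNA was measured in 12 samples of colonic epithelial cells, 4 groups of 3. The deposited values are whole-number read counts per gene, not normalized. The submitters' processing notes name STAR 2.5.2b, featureCounts 1.5.0 and GRCm38, and the settings for shared or multi-mapping reads are not given in the sources used here. Libraries were made from 2 ng RNA by a SMART-seq2 protocol, which has no molecular identifiers and does not mark strand.

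Gene IDs were matched without their version to GENCODE M21 (GRCm38), which gave symbols for 46005 of 46517 IDs. Some genes whose symbols fit the families are not reported here. The members and lists were chosen with earlier results of these data known. Genes were filtered by filterByExpr (12522 kept, 99.8% of counts), scaled by TMM, and tested with edgeR 4.0.16 in R 4.3.3 (quasi-likelihood F test, two-sided, 1 coefficient per group over all 12 samples), with Benjamini-Hochberg adjustment over all genes tested. SE is the log2 fold change divided by the root of F. DESeq2 1.42.0 was an alternative. CPM used TMM-scaled library sizes; 3 counts were 0.356 to 0.530 CPM. The script was tested on simulated data. The labels call the samples biological replicates and do not say whether animals were pooled, so p-values measure the spread between these samples.

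Members past the threshold in at least 1 contrast, the 2 most abundant per length in each family, and up to 6 called genes per companion list and contrast are named; Cyp2c66, Cyp4b1, Sult1b1, Gstm4, Gstm5, Gstm7, Hnf4a and Nr1i2 fall outside this rule and were picked with their values known. Promoter windows are those of RefSeq and matched 132 of 158 members. Deviations of same-numbered samples correlated at r = 0.204, 0.106 and 0.127 in the KO treatment contrast (the number comes from the titles). In the WT treatment contrast r was 0.0138, 0.120 and 0.128. In both, each value exceeded the highest r of that untreated sample with a differently numbered DSS sample. Between genotypes all same-numbered values were negative. The main test did not pair samples. Alternatives were size factors, DESeq2, other filters, a replicate block, only the groups compared, and each sample left out. The block had 1 effect per replicate number, shared by both genotypes, so pairing within each genotype was not fitted.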

Additional observations from a re-analysis of the deposited data

Results flagged for a closer look

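The DSS change of 3 members differed between WT and KO by the interaction term of edgeR. Cyp2c55 had an interaction of 2.03, from a DSS change of -2.77 in WT and -0.74 in KO. Cyp2c65 had an interaction of 1.10, from -2.26 in WT and -1.16 in KO. Ugt2b34 had an interaction of 0.61, from -0.70 in WT and -0.09 in KO. In the 2 Cyp2c genes the genotypes differed untreated (-1.95 and -1.39) and did not pass under DSS, and in Ugt2b34 they differed under DSS (0.41) and did not pass untreated.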

How the results depend on the processing

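No alternative reversed a member's change. Of 44 calls of a member in a contrast, 23 were kept in every alternative and 21 were lost in at least 1, and of 788 refitted values 668 stayed past the threshold. For DSS in KO, 9 members passed and 15 did with no filter beyond 1 count. For untreated KO against WT, 8 passed, 15 in DESeq2, 14 with no filter beyond 1 count and 5 when only those 2 groups were fitted. For the interaction 3 passed and 5 did in DESeq2. Calls over all genes moved too, from 491 to 776 for DSS in KO and from 213 to 355 for the interaction. For untreated KO against WT they went from 436 to 740, 703 and 195, in the order given. The cause of these shifts was not tested. With the replicate block, in the order of the report, 14, 8, 8, 7 and 3 members passed against 15, 9, 8, 9 and 3, and the block ended the calls of Ces2f in WT, Sult2b1 in KO, and Ces1d and Gstm3 between genotypes under DSS and no other call. When each library was left out in turn, the counts ranged from 10 to 19 for DSS in WT, from 4 to 15 for DSS in KO, from 6 to 16 for untreated KO against WT, from 3 to 9 under DSS and from 2 to 8 for the interaction, and in each contrast the highest came without untreated WT replicate 3. Over all genes the same fits gave 483 to 958, 235 to 710, 212 to 725, 160 to 566 and 152 to 350 calls. The replicate block gave 695, 409, 345, 290 and 186 calls over all genes, against 789, 491, 436, 390 and 213. Depth limits members with few counts, such as Ces2f and Cyp2c69.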
